A study of Mus musculus with 6 samples.

Results

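Ubiquitin-conjugating enzymes (E2 enzymes) and deubiquitinases were followed from pachytene and diplotene (P/D) spermatocytes to round spermatids (RS) of the mouse testis. They were taken by symbol, ignoring case, as every annotated transcript whose gene name starts with Ube2, Uchl, Otub, Otud or Josd, or with Usp and a digit. This gave 141 transcripts of 76 genes among 11517 annotated transcripts of 6985 symbols, with 68 transcripts of 33 E2 genes and 73 transcripts of 43 deubiquitinase genes. The deubiquitinases comprised 32 USP genes, 7 OTU genes, 3 UCH genes and the Josephin gene Josd1.

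Ubiquitin is activated by an E1 enzyme, passed to the active cysteine of an E2 enzyme and attached to a substrate with the help of an E3 ligase, and deubiquitinases take it off again. Some E2 enzymes carry related modifiers such as NEDD8 in place of ubiquitin. In spermatogenesis, ubiquitin marks histones during meiotic silencing of the sex chromosomes and before histones are replaced, and spermatids remodel much of their cytoplasm by proteolysis. A poly(A) tail is the stretch of adenosines at the 3′ end of an mRNA, which poly(A)-binding proteins coat.

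The study asked how tails change as male germ cells differentiate, and the values here come from direct RNA sequencing on nanopores, which reads native mRNA and its tail in 1 molecule. Both groups were sorted by FACS after Hoechst and propidium iodide staining from testes of C57BL/6J/B6 wild-type males aged 8 to 12 weeks, without further treatment. By the paper's microscopy the P/D sorting gate was much less pure than the RS gate, and other cells made up a large part of it. The P/D values below are those of this mixed gate. Each group had 3 replicates, and each replicate held mRNA pooled from 3 mice. The methods state that all germ cell types were sorted from the same mice, so P/D and RS pools are not independent of each other, but which pools share mice was not stated. The 3 P/D replicates shared 1 multiplexed library and the 3 RS replicates another, so the sequencing run and the cell type cannot be told apart. Totals were 244004 to 305950 reads in P/D and 316653 to 474688 in RS. Spermatocyte markers such as Sycp3 and Piwil1 held 0.404% to 0.503% of P/D reads and 0.286% to 0.334% of RS reads, with 8 of 11 transcripts lower in RS and the other 3, of Adam3 and Ccna1, higher. The 7 round spermatid markers held 0.0151% to 0.0288% of P/D reads and 0.233% to 0.241% of RS reads, with 8 of 8 transcripts higher. The 7 genes listed for elongating spermatids, among them Prm1 and Tnp2, rose from 0.168% to 0.224% of reads in P/D to 2.16% to 2.67% in RS. Of their transcripts tested, 11 of 11 were higher. The paper states that protamine, transition protein, Smcp and Odf1 mRNAs are made in RS, ahead of their translation in elongating cells. This list therefore does not tell RS from elongating spermatids, whose part in the results below was not tested. Spermatogonia, Sertoli cell, Leydig cell and macrophage lists had 0 to 7 reads in any sample, with Zbtb16, Kit, Sox9, Star and Csf1r at 0. Because the sorted cells were measured in bulk, fewer cells of a type and less RNA per cell cannot be told apart.

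Tails of these transcripts were mostly longer in RS, at the rate seen in the whole transcriptome. Of the 83 transcripts with enough reads to test, 47 lengthened, 1 shortened and 35 did not pass the limma test at an adjusted p of 0.05. The share that lengthened was 56.6%, against 54.2% of the 6990 transcripts tested in all, and shortening was called for 1.69% of all transcripts. The counts of both classes were close, as 24 of 42 E2 transcripts and 23 of 41 deubiquitinase transcripts lengthened. The median difference, RS minus P/D, was 32.6 nt over E2 transcripts and 35.3 nt over deubiquitinase transcripts, beside 37.4 nt over all transcripts tested. The 3 RS values all exceeded the 3 P/D values in 27 of the 39 E2 transcripts and 26 of the 38 deubiquitinase transcripts read in all samples, where 63.6% of all such transcripts showed this. Of the 23 transcripts whose reads numbered 20 or more in each of the 6 samples, 19 lengthened, against 82.3% of all transcripts read that deeply. With reads summed per gene, 17 of 27 E2 genes and 17 of 29 deubiquitinase genes lengthened and 0 shortened. The share over all genes was not counted, so these gene counts have no background beside them.

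**Figure D1:**
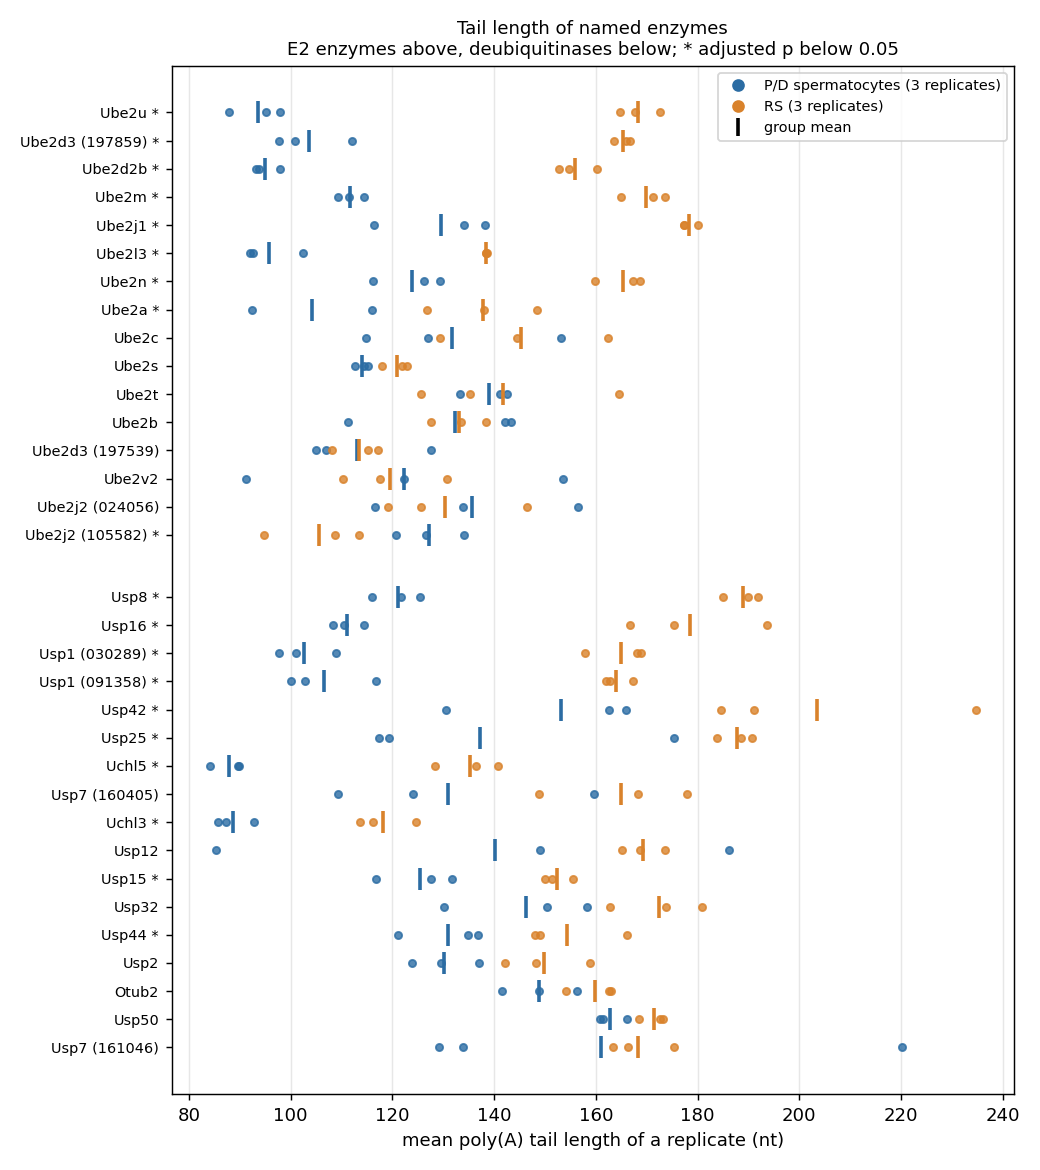
Mean tail length in nt (horizontal axis) of 33 named transcripts, E2 enzymes above and deubiquitinases below; points are replicates (blue P/D, orange RS), vertical bars are group means and asterisks mark an adjusted p under 0.05. Ube2u and Usp8 sit at the top of their blocks with RS points far to the right of the P/D points, while the points of Ube2b and of Ube2d3 transcript 197539 overlap.

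With each transcript counted once, the 2 enzyme classes differed in tail level in both cell types. By pooled reads, mean tails were close in P/D, at 112.4 nt for E2 enzymes and 115.5 nt for deubiquitinases. In RS they were 144.8 and 161.2 nt. In P/D spermatocytes the median of the mean tails was 113.6 nt over E2 transcripts and 130.2 nt over deubiquitinase transcripts, and in RS it was 141.5 and 169.2 nt. Over all transcripts tested it was 115.1 nt in P/D and 159.5 nt in RS. Mean tails under 120 nt were found in P/D for 25 of 42 E2 transcripts, 59.5%, and 14 of 41 deubiquitinase transcripts, 34.1%. The share over all transcripts tested was 56.4%. Among the 41 deubiquitinase transcripts tested, 34 had a mean tail of 150 nt or more in RS, a share of 82.9%. Only 16 of the 42 E2 transcripts did, a share of 38.1%, and 64.2% of all transcripts tested did. In P/D spermatocytes, 9 of 41 deubiquitinase transcripts, 22.0%, and 3 of 42 E2 transcripts, 7.14%, were already at that length, beside 16.3% of all transcripts tested. Mean tails under 120 nt in RS were found for 5 E2 transcripts, among them 1 each of Ube2v2, Ube2j2 and Ube2d3, and for 1 deubiquitinase transcript, that of Uchl3. The shares were 11.9% of E2, 2.44% of deubiquitinase and 10.2% of all transcripts tested. These counts describe the transcripts measured, which are not replicates of a class.

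Single reads were compared next. Tails were split into a ~60-nt class of 30 to 120 nt and a ~150-nt class of 120 to 210 nt. In P/D spermatocytes the ~150-nt class held 34.3% ± 1.6 of pooled E2 reads and 33.5% ± 0.96 of pooled deubiquitinase reads (SD, n = 3), with overlapping replicates. With each transcript weighted equally, the replicates held 34.2% to 37.9% for E2 and 38.7% to 40.7% for deubiquitinases in P/D, which did not overlap. In RS they held 54.1% to 64.0% and 65.8% to 69.0%. This weighting took every transcript with a read in a sample, however few its reads, so the set of transcripts could differ between samples. By pooled reads, the class in RS held 58.8% ± 1.6 of E2 reads and 68.3% ± 1.0 of deubiquitinase reads (SD, n = 3). The lowest RS replicate of the deubiquitinases, at 67.1%, lay above all E2 replicates, at 57.0% to 60%. Over all reads of a sample this class held 28.5% to 30.3% in P/D and 66.4% to 68.3% in RS. The ~60-nt class fell from 55.4% ± 1.3 to 19.0% ± 1.6 of deubiquitinase reads and from 56.4% ± 1.1 to 31.7% ± 1.7 of E2 reads (SD, n = 3). Ube2s alone supplied 22.0% of the E2 reads, and without it the E2 share of the ~150-nt class in RS was 61.1%. Without Uchl3, which supplied 10.3% of deubiquitinase reads, that share was 70.7%.

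**Figure D2:**
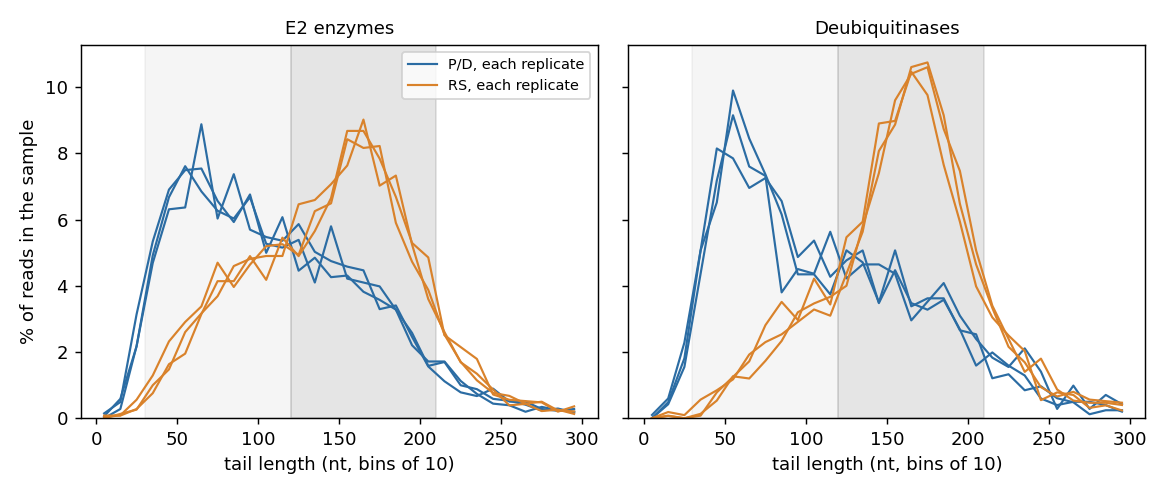
Percent of a sample's reads (vertical axis) by tail length in bins of 10 nt (horizontal axis), for pooled E2 reads and pooled deubiquitinase reads; each line is 1 replicate and grey shading marks the ~60-nt and ~150-nt classes. The RS lines peak at 160 to 170 nt in both panels, at a mean of 10.5% of deubiquitinase reads and 8.62% of E2 reads, and the E2 panel keeps a broader shoulder below 120 nt.

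The Ube2d genes encode E2 enzymes that work with many E3 ligases, and 6 of their 8 transcripts tested lengthened. The intronless gene Ube2d2b (ENSMUST00000072578, chr5:107830099-107831776 of GRCm38, 1 exon) had mean tails of 93.1, 97.9 and 93.9 nt in P/D and 154.8, 152.8 and 160.2 nt in RS. All RS values were above all P/D values, a difference of 61.0 nt (SE 5.5, adjusted p = 0.00049). Its accumulation rose too, from 535 ± 56 to 669 ± 16 CPM (counts relative to library size; SD, n = 3), a log2 fold change of 0.37 (SE 0.12, adjusted p = 0.0072).

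Ube2d3 was tested as 5 transcripts with different annotated 3′ ends on chromosome 3, and 4 of them lengthened, while a sixth had 9 reads and was not tested. The one that did not is ENSMUST00000197539, the most abundant of them, with 480 reads. Its mean tails were 104.9, 106.9 and 127.5 nt in P/D and 108.2, 115.3 and 117.1 nt in RS. The groups overlapped fully, and the difference was 0.44 nt (SE 8.0, adjusted p = 0.97). The transcript with the most distal end, ENSMUST00000197859, had 112.1, 97.6 and 100.8 nt in P/D and 166.7, 163.6 and 165.9 nt in RS. Here the groups were far apart, by 61.9 nt (SE 6.2, adjusted p = 0.00058). Its ~150-nt class grew from 27.8% to 75.3% of reads, while that of ENSMUST00000197539 was 33.5% in P/D and 31.5% in RS. The other 3 lengthened by 54.8 nt (ENSMUST00000199613), 43.4 nt (ENSMUST00000106291) and 33.0 nt (ENSMUST00000166033). The annotated ends of the 5 differ, and other differences between these transcripts were not examined. For each, 30 bases at or near that end are shown in order along the plus strand, with the poly(A) signal in capitals:
Ube2d3 ENSMUST00000199613, end at 135465286: gaataacctgcattatagctggAATAAAct
Ube2d3 ENSMUST00000106291, end at 135466058: ttatttttcttcAATAAAgttgcataaacc
Ube2d3 ENSMUST00000197539, end at 135466673: cttaacatgaatgAATAAAaaagtcaatgc
Ube2d3 ENSMUST00000166033, end at 135466950: aagctagaAATAAAtgtaaaagcttaattt
Ube2d3 ENSMUST00000197859, end at 135468198: ttgttaccATTAAAgtctgtgtttaaacac
The transcript without a tail call and 3 of the lengthened ones carry AATAAA, and the most lengthened carries ATTAAA. Among the last 40 bases of all tested transcripts found in the annotation, 61.5% held AATAAA and 14.1% held ATTAAA without it, and among the tested transcripts of these enzymes 53.7% and 14.6% did.

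The change in tail was then compared directly between transcripts of 1 gene, over 724 pairs in which each transcript had 10 or more reads in every sample. No pair passed an adjusted p of 0.05 (0.0% called), while 92 pairs had an unadjusted p under 0.05. The shift of ENSMUST00000197539 was smaller than that of ENSMUST00000199613 by 54.3 nt (SE 7.7) and smaller than that of ENSMUST00000197859 by 61.5 nt (SE 9.4), each with an adjusted p of 0.0504. Against ENSMUST00000106291 the gap was 43.0 nt (adjusted p = 0.11), and against ENSMUST00000166033 it was 32.5 nt (SE 14.4, adjusted p = 0.40). Differences between the Ube2d3 transcripts thus did not pass the threshold. For Ube2l3 and Usp1, whose transcript pairs shifted alike to within 4.92 nt, adjusted p was 0.99 and 0.81. The shifts of the Usp2 and Usp47 pairs differed by 16.3 and 19.9 nt (adjusted p = 0.37 and 0.34). Reads of overlapping transcripts were assigned by the authors' alignment and an incomplete read can fit more than 1 of them.

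**Figure D3:**
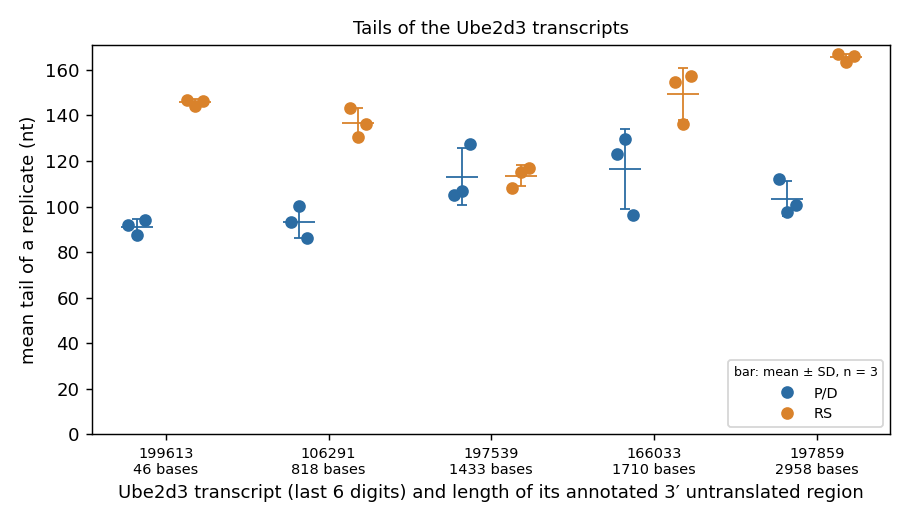
Mean tail of each replicate in nt (vertical axis, from 0) for the 5 Ube2d3 transcripts tested, ordered by the length of their annotated 3′ untranslated region; bars are mean ± SD of 3 replicates. Blue P/D and orange RS points overlap only for transcript 197539, at 113.1 and 113.5 nt, and are furthest apart for 197859, at 103.5 and 165.4 nt.

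Ube2s and Ube2c build ubiquitin chains on substrates of the anaphase-promoting complex, Ube2c starting chains and Ube2s extending them. Ube2s (ENSMUST00000079496) was the most abundant transcript of these enzymes, with 3022 reads. Its tails were 114.3, 115.3 and 112.7 nt in P/D and 121.9, 117.9 and 122.9 nt in RS, and the difference of 6.78 nt (SE 5.2, adjusted p = 0.32) did not pass the test. The replicates did not overlap, and the methods' equal-variance test (adjusted p = 0.037) and a fit weighted by reads (adjusted p = 0.0074) called the difference. Its accumulation fell from 1996 ± 54 to 1235 ± 60 CPM (SD, n = 3), a log2 fold change of -0.64 (SE 0.10, adjusted p = 1.7e-07). Ube2c had 9 to 19 reads per sample, and neither its tails (13.7 nt, SE 13.0, adjusted p = 0.41) nor its accumulation (log2 fold change 0.12, adjusted p = 0.78) passed the test.

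Ube2n makes lysine-63-linked chains together with Ube2v1 or Ube2v2, partners that lack the active cysteine. Ube2n (ENSMUST00000099329) stood at 248, 176 and 277 CPM in P/D and 696, 611 and 579.5 CPM in RS. No P/D value reached the RS values, and the log2 fold change was 1.49 (SE 0.15, adjusted p = 2.1e-11). Its tails lengthened from 123.9 ± 7.0 to 165.3 ± 4.8 nt (SD, n = 3; adjusted p = 0.0023). Ube2v2 (ENSMUST00000115777) rose by 2.19 on the log2 scale (SE 0.29, adjusted p = 1.1e-08), from 33.9 ± 14 to 156 ± 29 CPM (SD, n = 3). Its tails were 122.3 ± 31 nt in P/D and 119.5 ± 10 nt in RS (SD, n = 3), which overlapped (adjusted p = 0.89). Ube2v1 (ENSMUST00000109207) went the other way in accumulation, with 61.4 ± 17 CPM in P/D and 23.0 ± 6.3 CPM in RS (SD, n = 3). Its log2 fold change was -1.34 (SE 0.35, adjusted p = 0.00092). Its tails lengthened by 51.2 nt (SE 11.9, adjusted p = 0.011), on 6 to 25 reads per sample.

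Ube2a and Ube2b are near-identical homologues of yeast Rad6 that ubiquitinate histone H2B, Ube2a on the X chromosome and Ube2b on an autosome. Ube2a (ENSMUST00000016452, chrX:36874295-36884222) had 0, 2 and 1 reads in P/D and 19, 25 and 32 reads in RS. The groups were far apart, with a log2 fold change of 4.10 (SE 0.55, adjusted p = 2.1e-08) and a ratio of read shares of 18.1 (exact 95% interval 5.98 to 89.9, counting error only). The 3 P/D reads had mean tails of 116.0 nt in replicate 2 and 92.4 nt in replicate 3, against 126.9, 148.5 and 138.1 nt in RS. The difference of 33.6 nt (SE 11.0, adjusted p = 0.0496) was not called without any 1 of the RS replicates (adjusted p 0.058 to 0.12). Nor was it called by the methods' equal-variance test (adjusted p = 0.11) or by the fit weighted by reads (adjusted p = 0.42). Ube2b (ENSMUST00000020657) was well read in P/D, at 198 ± 14 CPM, and had 261 ± 15 CPM in RS (SD, n = 3), a log2 fold change of 0.46 (adjusted p = 0.017). That call was lost with DESeq2 (adjusted p = 0.069) and without P/D replicate 1 (log2 fold change 0.36, adjusted p = 0.11). Its tails were 143.3, 111.3 and 142.2 nt in P/D and 133.5, 127.6 and 138.4 nt in RS. The groups overlapped, and the difference was 0.88 nt (SE 10.2, adjusted p = 0.95).

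The remaining X-linked transcripts were also nearly unread in P/D spermatocytes. Usp9x, a large deubiquitinase gene, had 0 reads in each P/D replicate and 6, 18 and 7 in RS, at least 7.4-fold higher against a floor of 3 reads over the P/D group. Ube2dnl1 and Ube2dnl2, both annotated as Ube2d-like genes, had 2 reads each over P/D and 26 and 39 over RS. Only Ube2a had enough reads for the count test, and all 72 X-linked transcripts tested in the transcriptome were higher in RS.

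Ube2j1 and Ube2j2 are anchored in the endoplasmic reticulum and serve the degradation of its proteins, and they moved apart. Ube2j1 (ENSMUST00000124992) stood at 207, 176 and 167 CPM in P/D and 498, 484 and 469 CPM in RS. The RS values lay far above, with a log2 fold change of 1.45 (SE 0.15, adjusted p = 6.3e-11), and tails lengthened by 48.7 nt (SE 7.4, adjusted p = 0.0022). The Ube2j2 transcript ENSMUST00000024056 fell by 0.88 on the log2 scale (SE 0.31, adjusted p = 0.014; 0.13 with DESeq2), from 65.3 ± 0.78 to 33.9 ± 2.0 CPM (SD, n = 3). Its sister transcript ENSMUST00000105582 had tails of 134.0, 120.7 and 126.7 nt in P/D and 108.6, 94.7 and 113.4 nt in RS. It was the only tested transcript of these enzymes called shorter, by a difference of -21.5 nt (SE 7.5, adjusted p = 0.049). The call was lost without P/D replicate 1 or 3 or any RS replicate, with adjusted p from 0.051 to 0.13. A further Ube2j2 transcript, ENSMUST00000105583, whose annotated end at 155957711 lies beside that of ENSMUST00000105582 at 155957714, lengthened by 30.5 nt (SE 6.2, adjusted p = 0.0068) on 3 to 16 reads per sample. With reads summed over the gene, Ube2j2 tails differed by 5.99 nt (SE 8.3, adjusted p = 0.58).

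Among E2 enzymes of other modifiers, Ube2m carries NEDD8 to cullins. Ube2m (ENSMUST00000005714) had tails of 109.3, 114.4 and 111.5 nt in P/D and 164.9, 171.3 and 173.6 nt in RS. The replicates were well separated, by 58.2 nt (SE 5.6, adjusted p = 0.00054), while accumulation fell from 442 ± 28 to 284 ± 50 CPM (SD, n = 3; log2 fold change -0.60, adjusted p = 0.00047).

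The remaining named E2 enzymes held the extremes. Ube2u (ENSMUST00000133493) had tails of 95.1, 87.9 and 98.0 nt in P/D and 167.7, 172.6 and 164.8 nt in RS, the largest difference among the 23 deeply read transcripts at 74.7 nt (SE 5.9, adjusted p = 0.00049). Its accumulation did not pass the test (log2 fold change -0.05, adjusted p = 0.82). Ube2l3, which works with HECT and RBR ligases, lengthened by 42.8 nt (adjusted p = 0.0013) at a log2 fold change of 0.20 (adjusted p = 0.28). Ube2t (ENSMUST00000027687), the E2 that monoubiquitinates FANCD2 in DNA crosslink repair, had 73, 53 and 59 reads in P/D and 3, 8 and 7 in RS. The groups did not overlap, and the log2 fold change of -3.78 (SE 0.30, adjusted p = 3.2e-14) was the lowest among these enzymes. Its tails did not pass the test (2.81 nt, adjusted p = 0.85).

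Among the USP enzymes, 19 of 33 transcripts tested lengthened and 0 shortened. Usp8 (ENSMUST00000028841), which acts on receptors in endosomes, had tails of 125.5, 116.0 and 121.8 nt in P/D and 185.1, 191.8 and 190.0 nt in RS. All RS values were above all P/D values, by 67.9 nt (SE 5.8, adjusted p = 0.00049), and its ~60-nt class went from 53.4% to 0.929% of reads. Its log2 fold change in accumulation was 0.34 (adjusted p = 0.10). This passed the test among transcripts with 10 counts in every sample (0.53, adjusted p = 0.013), without P/D replicate 2 (0.50, adjusted p = 0.039) and with reads summed over the gene (0.45, adjusted p = 0.020). Usp1, which removes ubiquitin from FANCD2 and so reverses the step made by Ube2t, lengthened in both transcripts, by 62.4 nt (ENSMUST00000030289, adjusted p = 0.00061) and 57.4 nt (ENSMUST00000091358, adjusted p = 0.00081). Its accumulation did not pass the test in either (log2 fold changes 0.01 and 0.26).

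Usp16 and Usp3 take ubiquitin off histone H2A. Usp16 (ENSMUST00000026710) had tails of 108.4, 114.4 and 110.5 nt in P/D and 166.6, 175.4 and 193.7 nt in RS, a separation of 67.5 nt (SE 8.3, adjusted p = 0.001). It also rose by 1.37 on the log2 scale (SE 0.28, adjusted p = 5.3e-05). Another Usp16 transcript tested, ENSMUST00000144759, had a tail difference of -9.03 nt with no call, on 3 reads over P/D. Usp3 had 1 to 5 reads in each sample and was not tested. Usp44, which acts on histone H2B and in the spindle checkpoint, rose from 27.6 ± 9.9 to 118 ± 3.6 CPM (SD, n = 3; log2 fold change 2.09, adjusted p = 9.3e-08). Its tails lengthened by 23.4 nt (adjusted p = 0.047), a call lost without any 1 of the 6 replicates (adjusted p 0.052 to 0.12). The methods' equal-variance test did not call the difference after adjustment (adjusted p = 0.073).

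Usp50 and the Usp7 transcript ENSMUST00000161046 were among the strongest risers. Usp50 (ENSMUST00000028842) had 3, 5 and 2 reads in P/D and 32, 50 and 45 in RS, with a log2 fold change of 3.19 (SE 0.37, adjusted p = 7.0e-10). Its tails were already long in P/D, at 162.8 ± 2.9 nt, and were 171.5 ± 2.6 nt in RS (SD, n = 3). These did not overlap but did not pass the test (adjusted p = 0.22). The methods' equal-variance test called the difference (adjusted p = 0.040). Usp7, which deubiquitinates p53 and its ligase Mdm2, rose by 3.13 (ENSMUST00000161046, adjusted p = 2.5e-08) and 1.08 (ENSMUST00000160405, adjusted p = 0.003) on the log2 scale. Tails of ENSMUST00000161046 rested on 1, 6 and 1 reads in P/D and differed by 7.32 nt (adjusted p = 0.82), but by 36.9 nt (adjusted p = 0.0073) without P/D replicate 3.

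Accumulation also rose for Usp12 (log2 fold change 2.44, adjusted p = 1.0e-06), Usp25 (1.72, adjusted p = 4.7e-05) and Usp15 (1.60, adjusted p = 4.5e-06). Tails lengthened for Usp15 ENSMUST00000020334 by 27.0 nt (adjusted p = 0.012), and for Usp25 and Usp42 by 50.4 nt each (adjusted p = 0.039 and 0.04). Usp15 ENSMUST00000220377 also lengthened, by 29.5 nt, while Usp15 ENSMUST00000219937 differed by -13.1 nt with no call. The tail calls of Usp25 and Usp42 rested on 5 to 24 reads per P/D replicate. The methods' equal-variance test called neither (adjusted p = 0.10 for each). Without P/D replicate 2 or 3 or any RS replicate, adjusted p for Usp25 was 0.08 to 0.097. Adjusted p for Usp42 was 0.055 to 0.095 without P/D replicate 2 or 3 or RS replicate 1 or 2. Summed over the gene, Usp25 tails lengthened by 51.7 nt (adjusted p = 0.0080). Usp32 fell by 1.02 on the log2 scale (adjusted p = 0.0015), and its tails did not pass the test (26.2 nt, adjusted p = 0.056). The Usp2 transcript ENSMUST00000034508 passed neither test, with tails of 130.2 ± 6.7 and 149.8 ± 8.4 nt (SD, n = 3; adjusted p = 0.057) and a log2 fold change of 0.37 (adjusted p = 0.066). It passed the tail test without P/D replicate 1 (23.1 nt, adjusted p = 0.045), with weights by reads (adjusted p = 0.0065) and with 10 reads in both cell types or 20 in every sample (adjusted p = 0.024 and 0.0089). It passed the count test without P/D replicate 2 (log2 fold change 0.58, adjusted p = 0.013) or RS replicate 1 (0.46, adjusted p = 0.034), with RLE normalization (0.42, adjusted p = 0.036) and with 10 counts in every sample (0.56, adjusted p = 0.0080). The other Usp2 transcript tested, ENSMUST00000065461, passed both tests, with tails longer by 35.9 nt (adjusted p = 0.015) and a log2 fold change of 1.16 (adjusted p = 7.9e-06). Summed over the gene, Usp2 also passed both (24.3 nt, adjusted p = 0.025, and log2 fold change 0.76, adjusted p = 1.1e-05).

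All 3 UCH transcripts with enough reads lengthened. Uchl3 (ENSMUST00000002289), which trims ubiquitin and NEDD8 precursors, had tails of 85.8, 87.2 and 92.9 nt in P/D and 116.2, 113.7 and 124.6 nt in RS, a difference of 29.5 nt (SE 6.0, adjusted p = 0.0067). It kept the shortest RS tails of the deubiquitinases tested, and it fell by 0.41 on the log2 scale (SE 0.14, adjusted p = 0.0086). The fall was not called with DESeq2 (adjusted p = 0.086) or without RS replicate 3 (log2 fold change -0.34, adjusted p = 0.061). Uchl5, bound to the proteasome, lengthened by 47.3 nt (SE 6.0, adjusted p = 0.0011) with no count call (log2 fold change -0.52, adjusted p = 0.078). Usp14, the other proteasome-bound enzyme named here, had 5 to 9 reads per sample and was not tested. Uchl1, known from spermatogonia, had 0 to 5 reads per sample.

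Of the 13 OTU transcripts, 4 had enough reads for the tail test and 1 lengthened. The 3 tested for accumulation, which belong to Otub2 and Otud3 only, all rose. Otub2 (ENSMUST00000021620) had 3, 6 and 4 reads in P/D and 78, 100 and 63 in RS. Every RS replicate was far above P/D, with a log2 fold change of 3.75 (SE 0.30, adjusted p = 4.4e-14). Its tails were long in both cell types, at 148.9 ± 7.4 and 159.9 ± 5.0 nt (SD, n = 3; adjusted p = 0.2).

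Over all members, accumulation rose for 26 and fell for 11 of the 68 transcripts tested (edgeR, adjusted p under 0.05). Of all 6005 transcripts tested, 32.6% rose and 30.8% fell. Among E2 transcripts, 12 of 36 rose and 8 fell, with a median log2 fold change of 0.24. Among deubiquitinase transcripts, 14 of 32 rose and 3 fell, with a median of 0.43, beside -0.03 over all transcripts. Per gene, 12 of 24 E2 genes rose and 5 fell, and 13 of 26 deubiquitinase genes rose and 3 fell, without a count over all genes to set beside them. E2 transcripts took 0.675% ± 0.021 of all reads in P/D and 0.717% ± 0.011 in RS, and deubiquitinase transcripts 0.308% ± 0.019 and 0.425% ± 0.022 (SD, n = 3). Without Ube2s the E2 shares were 0.478% and 0.594%.

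**Figure D4:**
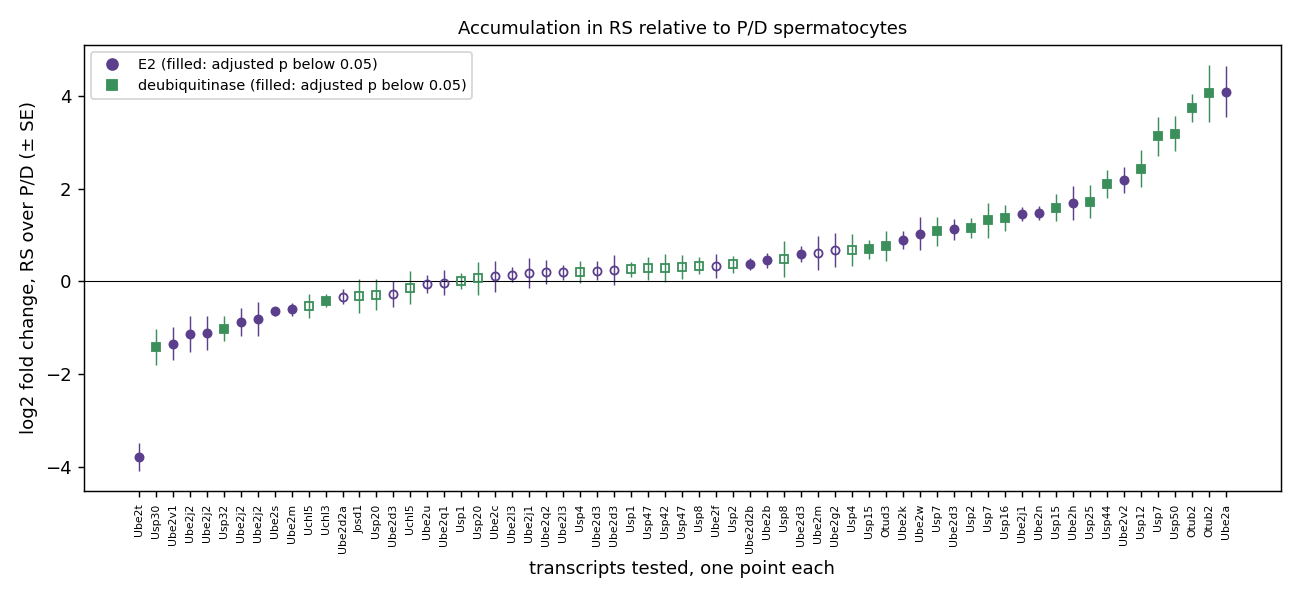
Log2 fold change in accumulation, RS over P/D (vertical axis), with its SE, for 65 of the 68 transcripts tested in rank order (horizontal axis); purple circles are E2 enzymes, green squares deubiquitinases, and filled symbols passed an adjusted p of 0.05. Ube2t is alone at the low end at -3.78, and the 5 highest are Ube2a, a pair of Otub2 transcripts, Usp50 and a Usp7 transcript.

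Promoters of risers were examined for the cyclic AMP response element, the site of CREM, an activator of genes in round spermatids. RefSeq promoters of 300 bases on GRCm38.p6, from 250 before to 50 after the annotated start, were found for 59 of the 76 genes. The full element TGACGTCA was in 2 of 24 promoters of genes with a transcript that rose, 8.33%, and in 1.79% of all promoters. The shorter TGACG, searched on both strands and contained in the full element, was in 11 of those 24 promoters, 45.8%, with the 2 Otub2 windows 1 base apart counted separately, in 3 of 11 promoters of genes with a transcript that fell, 27.3%, in 25 of 71 promoters of all these enzymes, 35.2%, and in 20.8% of all promoters. A transcript that rose starts inside a promoter window of 15 genes, of which 7 hold TGACG and 8, among them Ube2a, Ube2k and Usp12, do not. The promoters of Otub2, Ube2j1 and Ube2h are shown as examples of windows with matches, chosen after these were seen, with the matches to TGACG, to its reverse complement or to the full element in capitals. The Ube2h transcript ENSMUST00000102993 rose by 1.70 on the log2 scale (adjusted p = 0.00014).
Otub2, plus strand, chr12:103388431-103388730: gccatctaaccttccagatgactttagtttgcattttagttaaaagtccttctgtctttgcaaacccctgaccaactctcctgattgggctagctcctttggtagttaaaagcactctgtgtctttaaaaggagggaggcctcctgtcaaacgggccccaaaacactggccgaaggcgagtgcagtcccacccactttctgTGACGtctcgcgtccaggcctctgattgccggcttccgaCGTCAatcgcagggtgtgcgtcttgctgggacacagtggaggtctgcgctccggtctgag
Ube2j1, plus strand, chr4:33031130-33031429: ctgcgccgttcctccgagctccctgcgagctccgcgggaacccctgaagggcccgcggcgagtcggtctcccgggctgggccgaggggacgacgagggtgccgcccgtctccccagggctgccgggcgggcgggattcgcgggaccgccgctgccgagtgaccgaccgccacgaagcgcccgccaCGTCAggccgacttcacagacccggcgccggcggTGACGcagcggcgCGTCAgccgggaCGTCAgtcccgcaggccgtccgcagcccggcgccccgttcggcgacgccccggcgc
Ube2h, minus strand, chr6:30304490-30304789: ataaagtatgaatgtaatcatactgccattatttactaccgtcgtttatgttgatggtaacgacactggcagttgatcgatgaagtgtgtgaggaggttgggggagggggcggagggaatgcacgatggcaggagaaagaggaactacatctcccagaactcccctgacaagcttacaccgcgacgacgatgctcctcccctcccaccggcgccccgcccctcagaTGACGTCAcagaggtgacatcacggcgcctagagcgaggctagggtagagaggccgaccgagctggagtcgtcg
The other full element lies in an upstream Ube2b promoter (chr11:52000737-52001036), while the Ube2b transcript that rose starts at 52000484. A match is a run of letters and not a measured binding site.

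Tail change and accumulation were set side by side. Of the 66 transcripts tested for both, 13 lengthened and rose, 4 lengthened and fell, and 25 lengthened with no count call. A further 12 rose and 5 fell with no tail call. Joint calls were not counted over all transcripts, so these counts have no background beside them. Across transcripts, which share their libraries and are not independent replicates, Pearson's r between the tail difference and the log2 fold change was -0.07 over all 66, 0.12 over 36 E2 transcripts and -0.49 over 30 deubiquitinase transcripts. Both measures come from the same reads, so a transcript with few P/D reads has a loosely measured P/D tail.

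**Figure D5:**
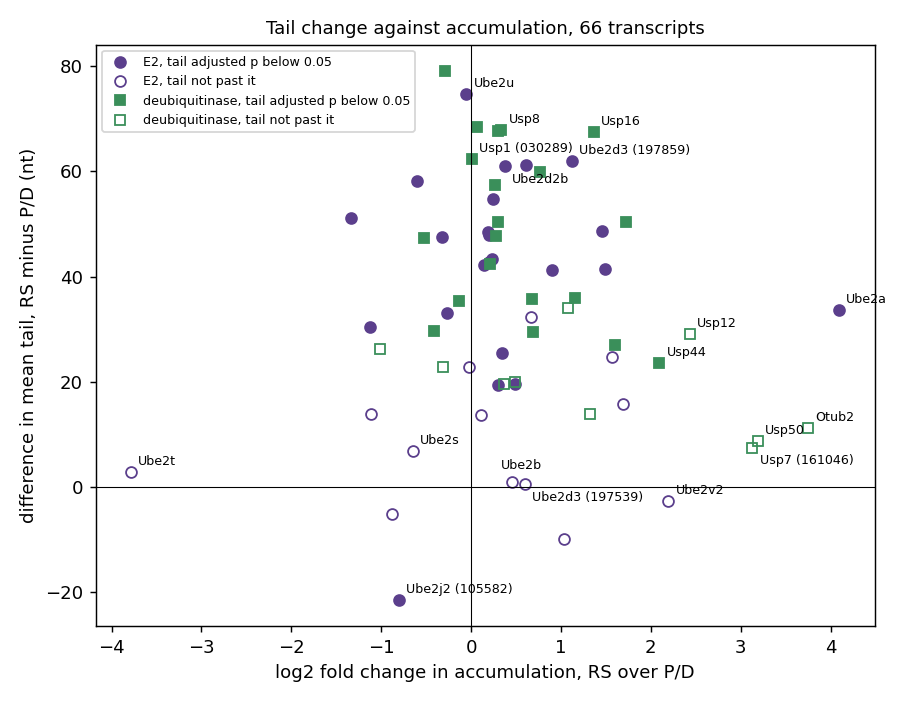
Difference in mean tail, RS minus P/D in nt (vertical axis), against log2 fold change in accumulation (horizontal axis) for 66 transcripts; purple circles are E2 enzymes, green squares deubiquitinases, and filled symbols passed the tail test. Usp50, Otub2 and Usp7 transcript 161046 rise by more than 3 on the log2 scale with open symbols near 10 nt, while Ube2u and Usp8 lie above 60 nt at log2 fold changes of -0.05 and 0.34, neither called.

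The genes around these enzymes in the pathway were described from lists. Of all transcripts tested, 54.2% lengthened and 1.69% shortened, with a median difference of 37.4 nt. In accumulation 32.6% of all transcripts tested rose and 30.8% fell. All 4 ubiquitin genes were read, and all 9 of their transcripts tested lengthened, by a median of 52.1 nt. In accumulation 6 of these 9 rose and 3 fell, with a Rps27a transcript lowest at a log2 fold change of -2.80. Of 9 E1 enzymes 5 were read, and 1 of 4 transcripts tested lengthened (Sae1, 24.0 nt, adjusted p = 0.026) and 1 shortened. The shortened one was Nae1, a subunit of the NEDD8 E1, whose tails went from 113.6 to 148.9 nt in P/D to 57.9 to 98.9 nt in RS, on 2 to 4 reads per RS replicate (adjusted p = 0.017). None of 3 E1 transcripts rose and 2 fell. Deubiquitinases of other names lengthened in 6 of 13 transcripts tested, with Cops5, which removes NEDD8 from cullins, at 76.1 nt (adjusted p = 0.00049), and 4 of 11 rose and 3 fell. E3 ligases and their subunits lengthened in 28 of 42 transcripts tested and shortened in 1, that of Cdc20, an activator of the anaphase-promoting complex, with a difference of -41.3 nt (adjusted p = 0.0011). Of 40 E3 transcripts tested for accumulation 17 rose and 10 fell, from the X-linked Cul4b at 4.90 to Rbx1, the cullin RING subunit, at -3.32. Cul4b had only 0, 0 and 1 reads in P/D, and 15, 24 and 14 in RS.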

How the data were processed

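Poly(A) RNA of the 6 samples was sequenced by the authors with a direct RNA kit on R9 flow cells, and reads were demultiplexed, aligned to GENCODE transcripts of GRCm38 (minimap2, version 2.20-r1061 in the submitters' processing notes) and Nanopolish was run for tail lengths. The deposited values were counts of reads for each transcript, not normalized by the authors, and, as another measurement, 1 tail length (nt) per read. The counts equalled the tail reads for all 12114 contigs of the count table. The 141 members, of which 140 are in GENCODE vM21 under the same symbol, and all lists were chosen with earlier results of these data known.

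The mean tail of each transcript in each replicate was tested with limma 3.58.1 over 6990 transcripts that had 10 or more reads in 2 or more replicates of 1 cell type, and counts with edgeR 4.0.16 (TMM scaling, filterByExpr, quasi-likelihood test) over 6005 transcripts. DESeq2 1.42.0 was an alternative. R was version 4.3.3. P-values were adjusted by Benjamini-Hochberg over all transcripts tested, with a threshold of 0.05. CPM are counts relative to library size after TMM scaling. Reads on more than 1 contig made up 56 of 21211 member reads. Both fits were tested on simulated data. The tail fit missed the smaller changes, and the count fit missed most of its smaller ones. A transcript without a call is therefore not shown to be unchanged in either measure. Named transcripts were the 8 largest and 5 smallest tail differences with 20 reads in every sample. They also took in the 8 highest and 8 lowest count changes called (20 reads in every sample of the higher cell type). The 8 most read, transcripts called shorter and those of 22 of 24 genes with known roles were named too. Ube2h, Ube2v1, Ube2dnl1, Ube2dnl2 and Usp47 were added after their values were seen. So were the other Ube2d3, Ube2j2, Usp2, Usp8, Usp15 and Usp16 transcripts. Replicates of a cell type are separate pools of mice, P/D and RS cells came from the same mice, and binomial intervals cover counting error only. Values of some named transcripts are not reported here, though group counts hold them.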

Additional observations from a re-analysis of the deposited data

How the results depend on the processing

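P/D and RS cells were sorted from the same mice, but whether equal replicate numbers mark the same mice was not stated. Deviations of same-numbered samples correlated at -0.01, 0.08 and 0.02 for tails and 0.03, 0.24 and 0.07 for counts, so samples were not paired. Under the replicate block, 43 transcripts lengthened and 0 shortened, and 26 rose and 10 fell. Transcripts called shorter numbered 0 with the replicate block, with the methods' equal-variance test after adjustment, with 20 reads in every sample, with weights by reads and per gene, and 0 to 1 when leaving out 1 replicate. Transcripts that lengthened numbered 20 of the 23 tested with 20 reads in every sample. Leaving out 1 replicate gave 35 to 45. Fewer transcripts could then be tested, for example 73 without RS replicate 2 against 83 in the main fit. Shares over all transcripts are not given for the alternatives. The E2 median tail difference was 41.3 nt with 10 reads in both cell types, 42.8 nt with 20 reads in every sample, 42.1 nt from replicate medians and 28.6 to 39.1 nt when leaving out 1 replicate, where the deubiquitinase median was 32.0 to 45.2 nt.

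DESeq2 called 6 transcripts lower. Without a filter on low counts 42 rose and 17 fell of 141 tested. With 10 counts in every sample 15 rose and 4 fell of 36 tested, with an E2 median log2 fold change of 0.43. Per gene that median was 0.50. With class bounds of 120 to 180 nt the share of E2 reads was 27.0% in P/D and 42.9% in RS, and that of deubiquitinase reads 24.8% and 48.6%. Weighting each transcript equally gave 35.6% for E2 and 39.4% for deubiquitinases in P/D. Without the most read transcript the class share was 32.1% and 61.1% for E2 and 36.2% and 70.7% for deubiquitinases, and the shares of all reads were 0.478% and 0.594%, and 0.262% and 0.391%.

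Sign changes concerned only named transcripts whose value was not called. From replicate medians the tail difference was -1.66 nt for Ube2d3 ENSMUST00000197539, -1.48 nt for Otub2, 1.14 nt for Ube2v2, -25.8 nt for Ube2t and 4.15 nt for Ube2j2 ENSMUST00000024056. With tails of 10 to 300 nt it was 7.19 nt for Ube2v2, -32.0 nt for Ube2t and -14.8 nt for Ube2c. Leaving out 1 replicate gave -3.65 to 7.64 nt for Ube2d3 ENSMUST00000197539, -18.4 to 12.8 nt for Ube2v2, -8.52 to 10.9 nt for Ube2t, -14.8 to 5.16 nt for Ube2j2 ENSMUST00000024056, -8.65 to 36.9 nt for Usp7 ENSMUST00000161046 and -9.61 to 6.40 nt for Ube2b. Log2 fold changes of Usp1 ENSMUST00000030289 were -0.039 without a filter and -0.12 to 0.20 when leaving out 1 replicate, and those of Ube2u 0.14 with 10 counts in every sample and -0.14 to 0.056 when leaving out 1 replicate. The cause was not tested. Keeping only reads on 1 contig, an alternative added after seeing the data, as was the comparison of transcript pairs, gave 47 longer and 1 shorter. Read number limits the P/D values of Usp50, Otub2, Usp12, Ube2a and Usp7 ENSMUST00000161046.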
